A study of Mus musculus with 50 samples.

Results

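C1qa, C1qb and C1qc, which encode the A, B and C chains of complement component C1q, were 3 of the 1000 gene targets of a spatial transcript assay of mouse liver, and all 3 were measured. The rule that picks them is their gene names. In the assay, CosMx spatial molecular imaging, probes are decoded on a tissue section spot by spot, and each decoded spot is 1 transcript of 1 target that is placed in a segmented cell or outside cells. The sections came from the median liver lobe, fixed, embedded in paraffin and cut at 5 µm. Control mice carried unaltered Hira alleles, and HIRA KO mice carried HIRA fl/fl alleles. The virus AAV8 Tbg-Cre was given to both groups when the mice were 6 months old, and livers were taken 12 months later, at 18 months. The Tbg promoter is active in hepatocytes, so the deletion of Hira, the gene of a histone H3.3 chaperone, was aimed at hepatocytes and not at macrophages. Hira was not a target of the panel, so the deletion could not be read from these data.

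The 50 fields of view, 25 for each group, lay in 6 separate tissue areas on 1 slide, 3 of control and 3 of HIRA KO, with 8 or 9 fields each. An area served as 1 replicate. The methods give 3 mice per group, but no label ties an area to a mouse, so p-values measure the spread between these areas. Control tissue was mounted on one side of the slide and HIRA KO tissue on the other, so genotype and side cannot be told apart. The areas formed 3 slide rows, with a control and a HIRA KO area in each. Of 52132 segmented cells, 49665 were kept, and the gene counts of an area in kept cells ranged from 718991 to 1542205.

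C1q is the recognition part of the classical complement pathway. Its A, B and C chains each join a collagen-like stalk to a globular head, fold together as trimers of 1 chain of each kind, and several trimers form the bouquet-shaped protein that binds antibody complexes, dying cells and other surfaces and activates the proteases C1r and C1s. Unlike most complement proteins of plasma, which hepatocytes secrete, C1q is made mainly by macrophages and dendritic cells, and in the liver by Kupffer cells, the resident macrophages of the sinusoids.

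The genes of the chains lie side by side on chromosome 4, on the minus strand, with 3 exons each (GRCm38, GENCODE vM21). C1qb spans chr4:136880129-136886187, C1qc chr4:136889804-136893065 and C1qa chr4:136895917-136898803. The gap is 3616 bases between C1qb and C1qc and 2851 bases between C1qc and C1qa. The coding sequences are of like length, 738 bases for C1qa, 762 for C1qb and 741 for C1qc. The longest exact stretch that 2 of the transcripts share is 15 bases, between C1qb and C1qc, against 12 for C1qa with C1qb and 11 for C1qa with C1qc. The probe sequences of the panel were not used here. The stalk shows in the coding sequence as triplets of codons that open with a glycine codon, GGN, and the longest unbroken run is 16 triplets in C1qa, 29 in C1qb and 16 in C1qc. The first 8 triplets of each run are shown because each chain has this repeat. Capitals mark the glycine codons, and coding bases 184 to 255 of C1qa, 91 to 162 of C1qb and 202 to 273 of C1qc are given.
C1qa: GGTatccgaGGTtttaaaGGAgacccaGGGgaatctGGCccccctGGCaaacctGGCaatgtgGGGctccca
C1qb: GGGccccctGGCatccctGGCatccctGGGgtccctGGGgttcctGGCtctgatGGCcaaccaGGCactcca
C1qc: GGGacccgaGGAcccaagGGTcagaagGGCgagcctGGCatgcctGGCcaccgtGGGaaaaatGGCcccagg

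The 250 bases before the start are shown for C1qb and C1qc because the counts of the chains moved together between areas; RefSeq (GRCm38.p6) gave them at chr4:136886201-136886450 for C1qb and chr4:136892915-136893164 for C1qc, minus strand, and C1qa had no entry in the table used. RefSeq and GENCODE place the starts at different bases, so part of the C1qc stretch lies inside the gene as GENCODE draws it. Capitals mark matches, on either strand, to GAGGAA, core letters of the sites of the myeloid factor PU.1, and to GCTGAC, a MAF half-site. The motifs do not overlap. GAGGAA lay 30 to 25 bases before the start in C1qb and 193 to 188 bases before it in C1qc, and GCTGAC lay at 107 to 102 and at 128 to 123 bases. GAGGAA was found in 23.3% of 32817 promoters of this length, GCTGAC in 12.9%, and both in 3.04%.
C1qb promoter: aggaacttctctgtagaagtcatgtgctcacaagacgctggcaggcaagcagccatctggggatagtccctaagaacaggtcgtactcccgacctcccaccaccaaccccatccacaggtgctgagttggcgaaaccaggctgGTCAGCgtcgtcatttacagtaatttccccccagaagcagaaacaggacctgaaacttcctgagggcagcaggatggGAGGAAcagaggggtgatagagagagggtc
C1qc promoter: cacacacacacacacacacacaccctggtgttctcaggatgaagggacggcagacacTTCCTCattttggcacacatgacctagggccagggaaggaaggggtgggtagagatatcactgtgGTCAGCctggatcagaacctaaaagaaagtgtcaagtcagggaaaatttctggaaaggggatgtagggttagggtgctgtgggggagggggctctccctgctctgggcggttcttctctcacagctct

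C1qb gave the most counts of the chains and C1qc the fewest, and all were above every negative probe, a probe that matches no transcript. Over the whole slide 19512 transcripts of C1qb were decoded, 16345 of C1qa and 7864 of C1qc, which placed them at ranks 38, 53 and 218 of the 1000 targets. The highest of the 10 negative probes gave 4364 counts, and C1qb was 4.47 times, C1qa 3.75 times and C1qc 1.80 times that value. C1qc thus lay closest to the background. A count depends on the probes of its target, so the proportions of the chains below are shares of counts, not molar ratios.

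The summed level of the 3 genes, as counts per 1000000 gene counts (CPM) of all kept cells, was 5282, 4826 and 7205 in control areas 1, 2 and 3 and 4857, 4864 and 8690 in HIRA KO areas 1, 2 and 3. The area of slide row 3 was the highest in either group, and the groups overlapped. The means were 5771 ± 1263 CPM in control and 6137 ± 2211 CPM in HIRA KO (SD, n = 3 areas each), and an exact permutation test over areas gave p = 0.8, with 0.1 the smallest p that 3 against 3 allows. Within fields of view the sum ran from 3372 to 7968 CPM in control, with a median of 5619, and from 3866 to 14190 CPM in HIRA KO, with a median of 5348. HIRA KO area 3 stood apart: its 8 fields lay between 6787 and 14190 CPM. Without its highest field, a choice made after the values were seen, that area was at 8043 CPM, which is still above every other area.

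C1qa, the A chain, was at 1936, 1567 and 2531 CPM in control areas 1 to 3 and at 1886, 1882 and 3443 CPM in HIRA KO areas 1 to 3. C1qb, the B chain, was at 2352, 2389 and 3474 CPM in control and at 1942, 2116 and 3833 CPM in HIRA KO. C1qc, the C chain, was at 994, 869 and 1199 CPM in control and at 1029, 866 and 1414 CPM in HIRA KO. Each gene was highest in row 3 of either group, and for none of the chains did all HIRA KO areas lie on one side of all control areas. Of the 735 targets above the highest negative probe, 21.8% had groups that did not overlap on this scale, in either direction. A single negative probe averaged 420 ± 49.2 CPM in control and 425 ± 24.7 CPM in HIRA KO.

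**Figure D1:**
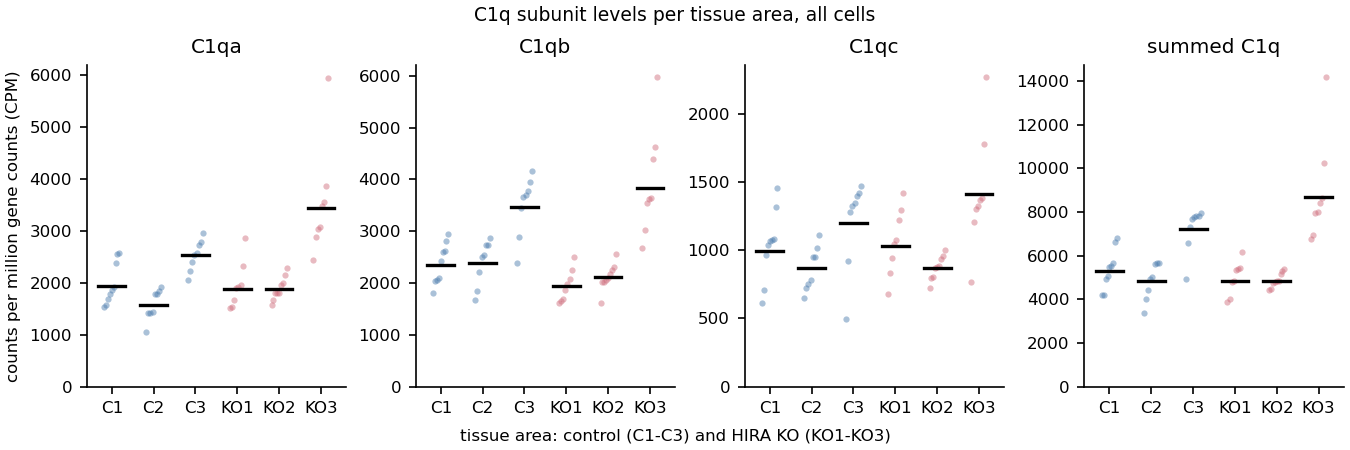
CPM of C1qa, C1qb and C1qc in all kept cells of each tissue area, control and HIRA KO, and their sum. Points are fields of view and black bars the level of the whole area (C1 to C3 control, KO1 to KO3 HIRA KO). The third HIRA KO area is the highest for each gene (3443, 3833 and 1414 CPM), and the groups overlap for all 3.

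Whether C1q transcripts differed with the deletion was tested with edgeR's quasi-likelihood test on counts summed per area, fitted on all targets. Neither the all-cell counts nor those of any tested cell class gave a call for C1qa, C1qb or C1qc at an adjusted p of 0.05. In all cells the log2 fold change of HIRA KO over control was 0.38 ± 0.29 (SE, 95% interval -0.24 to 1.01, edgeR adjusted p = 0.829) for C1qa, 0.07 ± 0.30 (edgeR adjusted p = 0.953) for C1qb and 0.24 ± 0.20 (edgeR adjusted p = 0.841) for C1qc. In the same fit 2 of 998 targets were called, 0.2%. None of the 3 genes had an unadjusted p under 0.05 in any of the main fits, against 73 of 998 targets in all cells, and DESeq2 called none of the 3 either. Without HIRA KO area 3 the all-cell fold changes were -0.03 for C1qa, -0.37 for C1qb and -0.04 for C1qc, so the sign of all 3 turned without this area. That of C1qb also turned without control area 1 (-0.031) or control area 2 (-0.0397).

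Scaled to tissue instead of to the gene counts, summed C1q was higher in each HIRA KO area than in any control area, as most targets were. Per megapixel of cell area the summed C1q counts were 34.2, 41.6 and 44.5 in control areas 1 to 3 and 50.02, 52.6 and 97.7 in HIRA KO areas 1 to 3, with means of 40.1 ± 5.31 and 66.8 ± 26.8 (exact permutation p = 0.1, n = 3 each). The groups did not overlap for C1qa (13.9 ± 1.58 against 26.2 ± 10.9) and C1qc (7.11 ± 0.586 against 12.0 ± 3.47), and they overlapped for C1qb (19.1 ± 3.38 against 28.7 ± 12.6). On this scale 59.6% of the 735 targets had all HIRA KO areas above all control areas. The gene counts themselves were 7.09 ± 1.33 per 1000 square pixels for control areas and 10.8 ± 0.473 for HIRA KO areas, without overlap, so 2 of 3 chains is near the share of all targets. Without HIRA KO area 3 the difference of the sum fell from 26.7 to 11.2.

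To learn which cells held the transcripts, cells were clustered on the other targets, with C1qa, C1qb and C1qc left out, and clusters were named from marker lists that also left them out. The study itself counted C1q genes among its Kupffer cell markers, so a class drawn with them would have held them by construction. The Kupffer-like cluster held 3234 cells, had 7 Kupffer cell markers raised and was led by Cd5l, a scavenger protein of tissue macrophages, Csf1r, the receptor of macrophage growth factor, the iron exporter gene Slc40a1 and the scavenger receptor gene Marco. The monocyte/dendritic-like cluster held 2621 cells and was led by H2-Aa, H2-Ab1, Cd74 and H2-Eb1, genes of antigen presentation, with Cd5l and Csf1r also among its leading genes. It had 6 of its 10 markers raised, and Cx3cr1, Ccr2, Itgax, Cd209a, Itgam and Ccr7 were not among its leading genes. Its Cd5l level was 3724 CPM, against 11393 CPM in Kupffer-like and 843 CPM in hepatocyte-like cells. How many Kupffer cells this class holds was not tested.

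C1q was highest in the Kupffer-like cells. Their summed level was 19830, 25152 and 27253 CPM in control areas 1 to 3 and 16851, 21402 and 29485 CPM in HIRA KO areas 1 to 3, a mean of 23329 ± 4786 CPM (SD over 6 areas). Monocyte/dendritic-like cells followed at 15979 ± 5739 CPM, ranging from 9994 to 25916. Stellate-like cells were at 6313 ± 1171 CPM, T/NK-like cells at 5078 ± 1557, B-lineage-like cells at 4987 ± 1093, neutrophil-like cells at 4319 ± 1240, endothelial-like cells at 4181 ± 483, myofibroblast-like cells at 3500 ± 409, hepatocyte-like cells at 3454 ± 549 and cholangiocyte-like cells at 2910 ± 319. Clusters that took no name, with 8686 cells, were at 3854 ± 1135 CPM. The level of Kupffer-like cells was 6.73 ± 0.75 times that of hepatocyte-like cells, and that of monocyte/dendritic-like cells 4.54 ± 1.03 times. With the 3 genes kept in the clustering, the mean log2 ratio of monocyte/dendritic-like over hepatocyte-like cells was 1.03 in place of 2.15, and that of Kupffer-like over hepatocyte-like cells 3.07 in place of 2.74.

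Neighbours in this order were compared within areas by exact sign-flip permutation, two-sided, whose smallest p over 6 areas is 0.031. Kupffer-like exceeded monocyte/dendritic-like cells by 0.59 ± 0.35 on the log2 scale, monocyte/dendritic-like exceeded stellate-like cells by 1.29 ± 0.27, stellate-like exceeded T/NK-like cells by 0.35 ± 0.32, and endothelial-like exceeded myofibroblast-like cells by 0.26 ± 0.05. Each of these held in 6 of 6 areas, with an exact permutation p of 0.031 and 0.0703, above 0.05, after Benjamini-Hochberg adjustment over the 9 pairs. The other 5 pairs did not differ beyond their spread, with exact permutation p from 0.125 to 1.

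**Figure D2:**
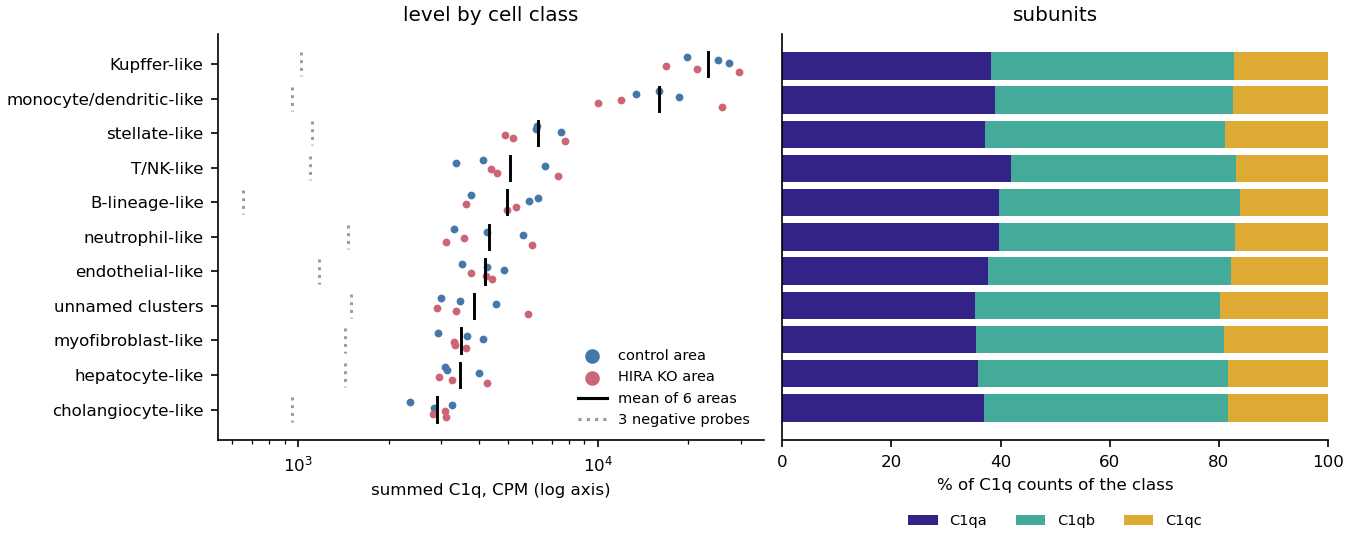
Summed CPM of C1qa, C1qb and C1qc by cell class, on a log axis, each point 1 tissue area, each black bar the mean over 6 areas and each dotted bar the level of 3 mean negative probes; the right panel gives the percent of each chain in the C1q counts of the class. Kupffer-like cells (16851 to 29485 CPM) and monocyte/dendritic-like cells stand above all other classes.

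Within Kupffer-like cells C1qa was at 8798 ± 1770 CPM, C1qb at 10509 ± 2961 and C1qc at 4022 ± 404 (SD over 6 areas). Hepatocyte-like cells gave 1207 ± 269, 1597 ± 311 and 650 ± 64.7 CPM, beside 476 ± 41.3 CPM for a mean negative probe in those cells. C1qc in hepatocyte-like cells was therefore near the background. A cell with a count is less than a cell that makes C1q: 78.7 ± 6.33% of Kupffer-like cells held at least 1 C1q count, and so did 33.4 ± 6.22% of hepatocyte-like and 21.4 ± 2.11% of cholangiocyte-like cells, a type that is not known to make C1q, at median depths of 115, 149 and 96 counts per cell. After each cell was thinned to 50 counts, with 487 Kupffer-like, 2098 hepatocyte-like and 503 cholangiocyte-like cells too shallow, the shares were 62.6%, 13.99% and 11.1%.

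A large part of the C1q counts, with no probe background taken off, lay outside the macrophage classes. Kupffer-like and monocyte/dendritic-like cells were 11.8% of kept cells and held 42.4% of the C1q counts, whereas hepatocyte-like cells held 23.5%. Part of these counts is background. Taking off the level of 3 mean negative probes left 22305 CPM in Kupffer-like and 2027 CPM in hepatocyte-like cells, from 23329 and 3454. Cells rich in C1q, with at least 10 counts, were another matter: 87.8% of the 385 such cells were Kupffer-like or monocyte/dendritic-like, and 47 belonged to other classes. Rich cells held 12.5% of the counts, and the highest cell held 38. By area they numbered 19, 37 and 28 in control and 18, 44 and 239 in HIRA KO, so HIRA KO area 3 held most of them, at 3.21% of its cells against 0.177% to 0.544% elsewhere.

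Kupffer-like cells were 7.504% of the cells of HIRA KO area 3, against 5.73% to 7.52% in the other areas, and monocyte/dendritic-like cells were 10.01%, the highest share of the 6 areas, against 1% to 7.32%. The Kupffer-like cells of HIRA KO area 3 held 5.23 C1q counts each, against 2.19 to 3.67 elsewhere. Its median depth per Kupffer-like cell was also the highest, at 145 counts against 92 to 131. In its highest field 118 cells were Kupffer-like, against 52 to 80 in its other fields, and the CPM of Cd5l was 5036.

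The stain for CD45, a protein carried by white blood cells and read by antibody apart from any transcript, was bright on C1q-rich cells. The median intensity of these cells was 2190, 2921 and 3187 in control areas 1 to 3 and 3597, 2658 and 3161 in HIRA KO areas 1 to 3. Cells with no C1q count had medians of 701, 616, 701, 923, 785 and 943 in the same order. The medians of the rich cells lay above all medians of cells without C1q, and the difference averaged 2174 (6 of 6 areas, exact sign-flip permutation p = 0.031). Medians of all Kupffer-like cells ran from 2048 to 2858 over the areas, and those of T/NK-like cells from 818 to 5599. A bright stain was thus not particular to C1q-rich cells.

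The share of C1q counts that lay in Kupffer-like cells was lower in each HIRA KO area than in any control area, at 28.9%, 27.8% and 29.8% in control areas against 20.5%, 24.4% and 25.2% in HIRA KO areas (28.8 ± 0.981% against 23.3 ± 2.51%, exact permutation p = 0.1, the smallest possible). The share in monocyte/dendritic-like cells was 14.4%, 3.23% and 11.04% in the control areas and 19.4%, 8.37% and 30.3% in the HIRA KO areas (exact permutation p = 0.3), beside 359, 68 and 275 such cells against 745, 430 and 744. The percent of cells that were Kupffer-like overlapped between the groups (6.82 ± 0.952 against 6.36 ± 0.993, exact permutation p = 0.9). So did the summed C1q CPM of these cells (exact permutation p = 0.8). How many other targets separate the groups by their share in Kupffer-like cells was not counted, so this is not shown to be particular to C1q. The shares move with the number of cells in each class, and the part of these numbers in the result was not tested. They also depend on where the clustering divides the macrophage classes. With the 3 genes kept in the clustering the Kupffer-like class held 4310 cells in place of 3234, and the shares under that clustering are not given here.

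Within classes the deletion gave no call for a chain. In Kupffer-like cells the log2 fold changes were 0.19 ± 0.29 for C1qa, -0.19 ± 0.32 for C1qb and -0.04 ± 0.23 for C1qc (SE, edgeR adjusted p from 0.987 to 0.994), in a fit that called 0.602% of 997 targets. In hepatocyte-like cells they were 0.37 ± 0.18 (edgeR adjusted p = 0.460), -0.01 ± 0.18 (0.986) and 0.23 ± 0.12 (0.478), with 0.802% of 998 targets called. In endothelial-like cells they were 0.12 ± 0.18 (edgeR adjusted p = 0.955), -0.17 ± 0.18 (0.941) and 0.29 ± 0.18 (0.817), with 0.2% of 998 targets called. C1qa in hepatocyte-like cells came nearest to a call, with an edgeR adjusted p of 0.0779 once the slide row was a block. Its log2 change of 0.37 was 0.16 without HIRA KO area 3 and 0.61 without control area 3. Some hepatocyte markers moved in the Kupffer-like cells. The summed level of the 10 on the panel was 44829 to 51750 CPM in control areas and 65057 to 73868 CPM in HIRA KO areas. How many other targets separate the groups in these cells was not counted. Ttr (mean 8313 CPM in control, 21966 in HIRA KO) and Apoe (18353 and 24938) moved most in CPM. Apoe was not called (edgeR adjusted p = 0.964), and its areas overlapped, at 16036 to 21424 CPM in control and 18801 to 29378 CPM in HIRA KO. Apoe was also among the panel genes most like summed C1q, at rank 4. Serpina1a and Apoc1 were lower in HIRA KO, with log2 changes of -0.17 and -0.18. Of the 10, 3 were called higher and none was at 0, and their part in the C1q values of these cells was not tested.

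The proportion of the chains was more alike between areas than their level, and it separated the groups without passing the test. C1qa made up 36.6%, 32.5% and 35.1% of C1q counts in control areas 1 to 3 and 38.8%, 38.7% and 39.6% in HIRA KO areas 1 to 3. C1qb made up 44.5%, 49.5% and 48.2% in control and 39.98%, 43.5% and 44.1% in HIRA KO. All HIRA KO areas were above all control areas for C1qa and below them for C1qb.

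The means for C1qa were 34.8 ± 2.11% and 39.05 ± 0.502%, and those for C1qb 47.4 ± 2.59% and 42.5 ± 2.23% (SD, n = 3 areas each). For either chain the exact permutation p was 0.1, the smallest possible, and 0.2 after adjustment over 6 shares, so neither difference passed the threshold. C1qc made up 18.8%, 18.0% and 16.6% in control areas and 21.2%, 17.8% and 16.3% in HIRA KO areas, with overlap (exact permutation p = 0.9). Within slide rows 1 to 3 the C1qa share of HIRA KO was higher by 2.18, 6.22 and 4.49 percentage points. The 95% Wilson interval of the C1qa share, which covers counting error only, was 35.3% to 38.02% in control area 1, the highest of control, and 37.6% to 39.8% in HIRA KO area 2, the lowest of HIRA KO, so the intervals of these areas overlapped.

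The log2 ratio of C1qa to C1qb does not depend on C1qc or on any scaling, and it was -0.45 ± 0.16 in control and -0.12 ± 0.07 in HIRA KO, without overlap, a difference of 0.33. Of the 269745 pairs that the 735 targets form, 14% had log2 ratios without overlap, so a pair that separates the groups is common among targets. The difference was also present, without overlap, in hepatocyte-like cells (0.42), in monocyte/dendritic-like cells (0.37), in transcripts outside cells (0.36) and in all cells other than the macrophage classes (0.29). In Kupffer-like cells it was 0.39, in endothelial-like cells 0.26 and in stellate-like cells 0.11, each with overlap. The same areas enter each of these values, so they are not independent of one another. The share of pairs without overlap was counted in all cells only, so it is not known how common a separation is in the other sets.

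**Figure D3:**
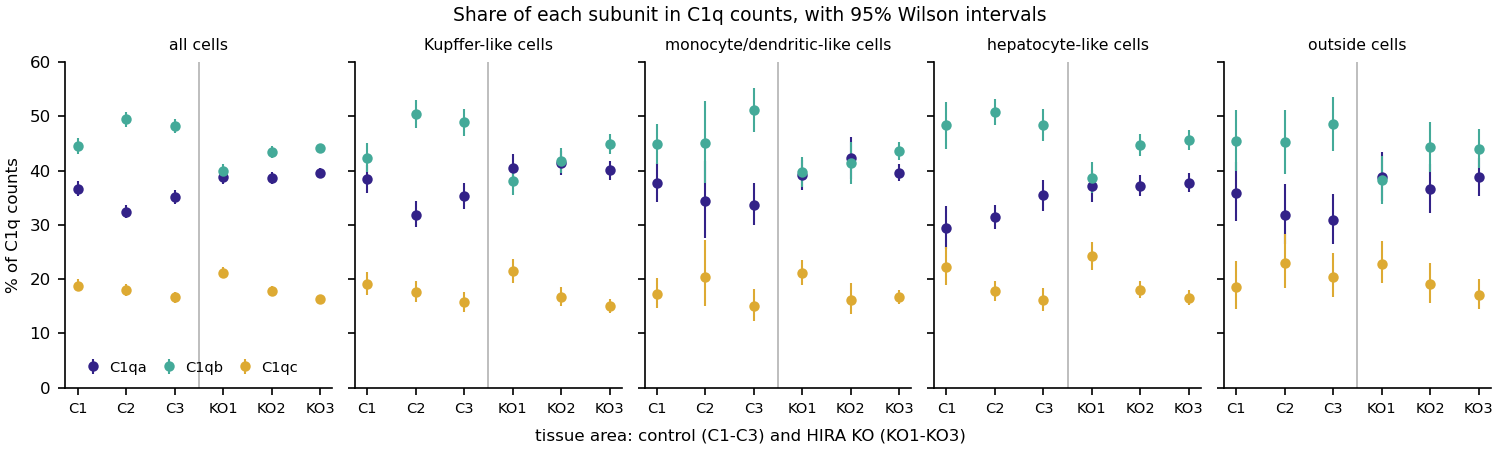
Share of C1qa, C1qb and C1qc in the C1q counts of each tissue area, in percent, for all cells, 3 cell classes and transcripts outside cells; points are areas and bars 95% Wilson intervals. In all cells the C1qa share of every HIRA KO area (38.7% to 39.6%) lies above that of every control area (32.5% to 36.6%).

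In Kupffer-like cells C1qa made up 38.5%, 31.9% and 35.3% of C1q counts in control areas and 40.5%, 41.4% and 40.1% in HIRA KO areas (exact permutation p = 0.1, adjusted 0.2). C1qb made up 42.4%, 50.5% and 48.9% against 38.1%, 41.9% and 44.9%, with overlap (exact permutation p = 0.2, adjusted 0.3). Over all named and unnamed classes, with the counts of the areas pooled so that areas with more counts weigh more, C1qa was 35.4% to 42.003%, C1qb 41.2% to 45.9% and C1qc 16.1% to 19.8% of C1q counts.

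Single cells seldom showed all chains. Of 17559 cells with a C1q count, 65.3% held counts of 1 chain, 24.6% of 2 chains and 10.1% of all 3. Among Kupffer-like cells with a count these shares were 34.4%, 38.5% and 27.2%, and 689 cells held all 3 chains, whereas among hepatocyte-like cells with a count they were 73.3%, 22.2% and 4.50%. The median depth over all targets was lower in the Kupffer-like cells, at 115 against 149 counts per cell. Their C1q counts per cell were higher, at 3.25 ± 1.11 against 0.575 ± 0.198 (SD over 6 areas). A cell with fewer than 3 C1q counts cannot show all chains, so these shares depend on the C1q counts per cell. Whether the chains occur together beyond that was not tested.

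Where counts allowed a ratio per cell, it varied somewhat more than counting alone gives over all such cells, but not for every chain in every class. In the 385 cells with at least 10 C1q counts, of which 239 came from HIRA KO area 3, the median cell had 38.5% C1qa (quartiles 28.6% and 50%), 45.5% C1qb (35.3% and 57.1%) and 14.3% C1qc (8.33% and 21.4%). The variance of these shares was 1.20, 1.27 and 1.26 times that of binomial counting from the proportion of each area. In the 187 such cells that were Kupffer-like it was 1.4, 1.34 and 1.30 times. In the 151 that were monocyte/dendritic-like it was 0.996, 1.25 and 1.26 times, so C1qa did not exceed counting there. In the 18 that were hepatocyte-like it was 0.577, 1.27 and 2.61 times, below counting for C1qa. Of the 385 cells, only 2 had no C1qa count and 3 no C1qb count, while 55 had no C1qc count. In the 1935 cells with at least 5 counts the variance was 1.18, 1.17 and 1.13 times that of counting.

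Across cells the counts of the chains were weakly correlated. Pearson's r of residuals over cells, averaged over 6 areas, was 0.34 for C1qa with C1qb (0.27 to 0.52) 0.24 for C1qa with C1qc and 0.25 for C1qb with C1qc. The panel genes most like summed C1q were Cd5l at 0.42 (0.31 to 0.58), the invariant chain gene Cd74 at 0.29, the lysosomal saposin precursor gene Psap at 0.23, the lipoprotein gene Apoe at 0.22, the class II gene H2-Aa at 0.21 and the Fc receptor chain gene Fcer1g at 0.21. Within Kupffer-like cells r was lower, at 0.20 for C1qa with C1qb, 0.13 for C1qa with C1qc (lowest area 0.03) and 0.13 for C1qb with C1qc, and each chain had 0.09 to 0.15 with Cd5l. These are descriptions, since cells share a section, a depth and neighbours.

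Summed C1q in hepatocyte-like cells was higher close to Kupffer-like cells. In each area the 25% of hepatocyte-like cells nearest to a Kupffer-like cell centre (within 157 to 210 pixels) were set against the farthest 25% (beyond 365 to 489 pixels). Near and far cells held 3374 and 3114 CPM of summed C1q in control area 1, 3429 and 2578 in area 2, and 4486 and 3779 in area 3. In HIRA KO they held 3556 and 2725 CPM in area 1, 3374 and 3134 in area 2, and 4805 and 3833 in area 3. The near cells were higher in each of the 6 areas.

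The log2 ratio of near over far was 0.27 ± 0.13 (SD over 6 areas, exact sign-flip permutation p = 0.031, 0.0597 after adjustment over 21 ratios, which is above 0.05). By chain it was 0.20 for C1qa (higher near in 4 of 6 areas), 0.27 for C1qb (6 of 6) and 0.32 for C1qc (5 of 6). Of the 735 targets, 4.08% were higher near in all 6 areas, and by mean ratio Cd5l ranked 1, C1qc 7, C1qb 18 and C1qa 57. Cd5l, made by the Kupffer-like cells themselves, had a ratio of 0.53 ± 0.26 in 6 of 6 areas. Marco, also of Kupffer cells but at a lower level, had 0.02 (exact permutation p = 0.719). Its 580 CPM near and 566 CPM far lay close to the 476 CPM of a mean negative probe in hepatocyte-like cells, so background limits its ratio. Apoa1, an apolipoprotein gene of hepatocytes, had -0.09 (exact permutation p = 0.281). The ratio of C1q did not differ between control and HIRA KO areas beyond their spread (0.26 against 0.27, exact permutation p = 1).

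Endothelial-like and stellate-like cells, added after seeing the data, were also higher near than far, by 0.62 ± 0.21 and 0.43 ± 0.28 for summed C1q (each 6 of 6 areas, exact permutation p = 0.031, adjusted 0.0597). Cd5l had 0.79 and 0.73 in the same cells. Along the distance, hepatocyte-like cells held 4889 ± 1347 CPM of C1q within 75 pixels (4 areas had at least 20 such cells), 4149 ± 1199 at 75 to 100 pixels, 3446 ± 663 at 150 to 200 pixels and 3312 ± 692 at 400 to 600 pixels. A negative probe stood at 528 CPM in the nearest and 472 CPM in the farthest of these bins.

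**Figure D4:**
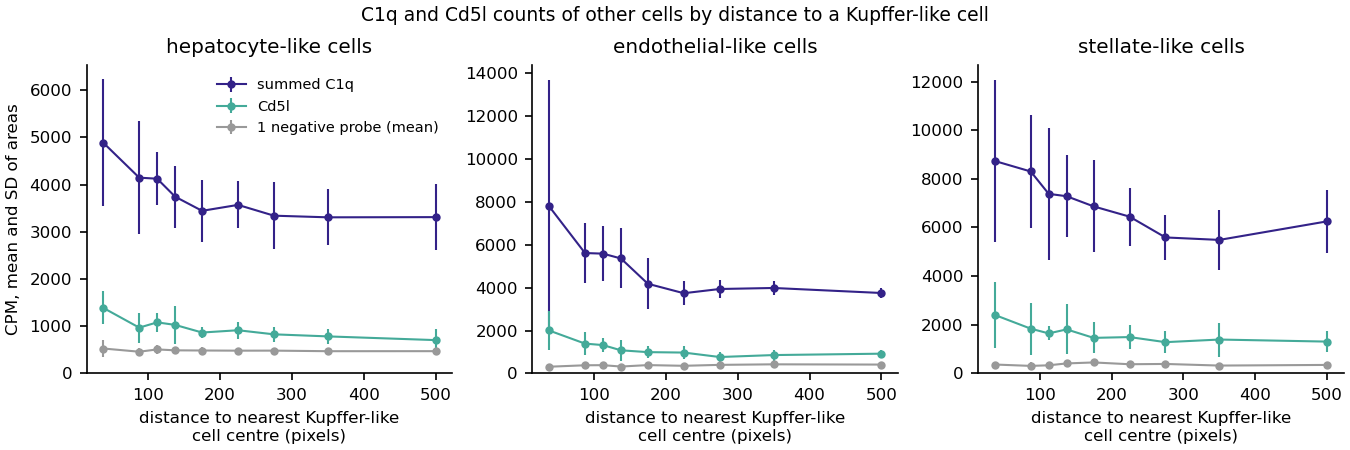
CPM of summed C1q, Cd5l and a mean negative probe in hepatocyte-like, endothelial-like and stellate-like cells against the distance in pixels to the nearest Kupffer-like cell centre, mean and SD over tissue areas. The nearest bin of hepatocyte-like cells averages 4 areas only; over bins with all 6 areas C1q goes from 4149 CPM at 75 to 100 pixels to 3312 CPM at 400 to 600 pixels.

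Inside the nearest hepatocyte-like cells the C1q transcripts lay toward the Kupffer-like cell. The position of each transcript from the cell centre was compared with the direction to the nearest Kupffer-like centre, where a cosine of 1 is straight toward it and 0 is no preference. The mean cosine of C1q exceeded that of all other genes by 0.255, 0.121 and 0.120 in control areas 1 to 3 and by 0.139, 0.121 and 0.239 in HIRA KO areas 1 to 3. The excess averaged 0.166 ± 0.0635 over 2565 C1q transcripts (6 of 6 areas, exact sign-flip permutation p = 0.031). On the facing side lay 59.7 ± 4.51% of C1q transcripts and 49.97 ± 0.414% of the others. Cd5l exceeded the others by 0.191 in 6 of 6 areas, and Apoa1 differed by -0.00 (exact permutation p = 0.875).

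Transcripts outside cells were also nearer to Kupffer-like cells when they were C1q. Their median distance to the nearest Kupffer-like centre was 313, 288 and 246 pixels in control areas 1 to 3, where all gene transcripts outside cells had 355, 315 and 262. In HIRA KO areas 1 to 3 it was 262, 236 and 282 pixels, against 310, 279 and 301. C1q was nearer in 6 of 6 areas, by 32.3 ± 13.9 pixels (exact sign-flip permutation p = 0.031), and 9.49% of it lay within 100 pixels against 7.04% of all. Cd5l was nearer by 77.5 pixels on average, and in 6 of 6 areas. Apoa1 was nearer by 16.1 ± 22.04 pixels, in 4 of 6 areas (exact permutation p = 0.125).

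The share of C1q transcripts outside cells was no higher than that of other genes. Outside cells lay 5.79 ± 0.868% of C1q transcripts of control areas and 5.95 ± 0.650% of those of HIRA KO areas (exact permutation p = 0.8, n = 3 each), against 6.29 ± 1.29% and 7.40 ± 1.18% of all gene transcripts. By gene the share was 5.68% for C1qa, 5.79% for C1qb and 6.43% for C1qc, and the median of the 735 targets was 6.70%.

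The proportion of C1q to Cd5l was lower in Kupffer-like cells than in monocyte/dendritic-like or hepatocyte-like cells. The CPM ratio of summed C1q to Cd5l was 2.09 ± 0.26 in Kupffer-like cells (1.76 to 2.47 over areas), 4.72 ± 1.09 in monocyte/dendritic-like cells (3.62 to 6.15) and 4.12 ± 0.46 in hepatocyte-like cells (3.49 to 4.63). After the level of negative probes was taken off, Kupffer-like cells were at 2.06 and hepatocyte-like cells at 5.85 ± 1.57. Cd5l helped to draw and name the Kupffer-like class while C1q did not, which lowers the ratio in this class by construction, so these values are a description only. Which cells the remaining counts came from was not tested.

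C1q transcripts lay at the edge of cells more often than those of nearly all other targets. The transcript table places each transcript of a cell in the nucleus, the cytoplasm or the membrane zone, and the sources used here do not state how the zones are drawn. This measure was chosen after its values were seen. In the membrane zone lay 27.5 ± 4.01% of C1q transcripts and 15.8 ± 2.75% of all gene transcripts (SD over 6 areas), a difference of 11.7 ± 2.21 percentage points that had the same sign in 6 of 6 areas and is given with no test. Of the 735 targets, 13.6% were above all genes in all 6 areas. By the mean share Cd5l ranked 1, C1qc 2, C1qa 3 and C1qb 4, and Apoa1 ranked 27.

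The Kupffer-like cells also had more of C1q than of all genes in the membrane zone, with 26.9 ± 3.54% of C1q in the membrane zone against 17.7 ± 2.72% of all genes, a difference of 9.20 ± 2.24 points. There Cd5l ranked 2, C1qc 4, C1qb 5 and C1qa 7. In hepatocyte-like cells the shares were 29.1 ± 6.07% and 16.5 ± 3.69%. The nucleus held 36.2% of C1q in all cells against 48.3% of all genes, and the cytoplasm 36.2% against 35.9%.

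**Figure D5:**
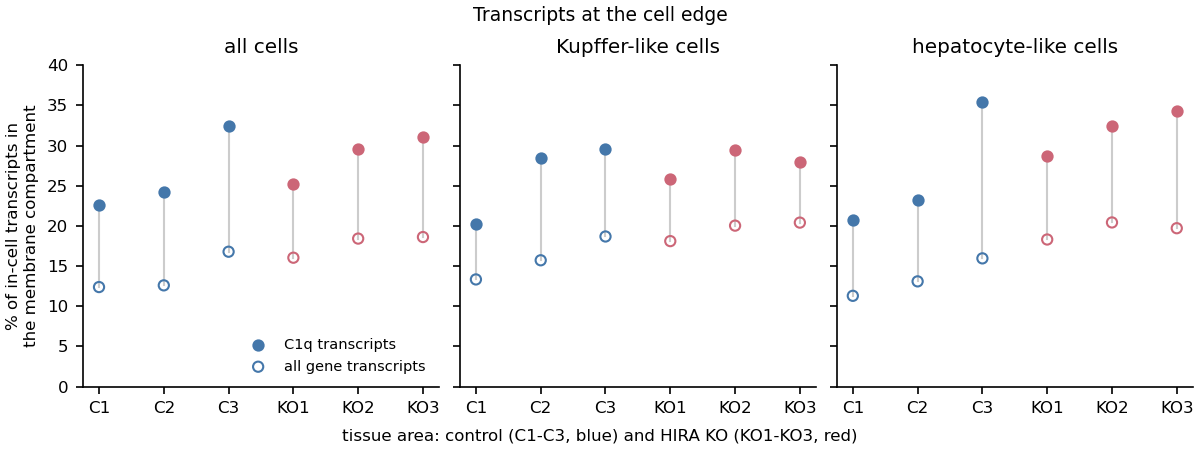
Percent of transcripts in the membrane zone of cells for C1q (filled) and all gene transcripts (open), in all cells, Kupffer-like cells and hepatocyte-like cells, each pair of points 1 tissue area. In all cells C1q averages 27.5%, against 15.8% of all gene transcripts.

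Few of the genes C1q works with were on the panel. Of a list of 41 complement genes, 9 besides the members were targets: the integrin chains Itgb2, Itgam and Itgax of complement receptors, the C5a receptor gene C5ar2, the regulators Clu, Cd59a, Cd55 and Vtn, and factor D, Cfd. C1r and C1s, the proteases that C1q activates, were not among the 9. In Kupffer-like cells the highest of them were Itgb2 at 1526 CPM, C5ar2 at 1321, Clu at 1309 and Cd59a at 1224, where the highest negative probe was at 446 CPM. Vtn, which encodes vitronectin, an inhibitor of the terminal complex, was the only one that rose, by 1.28 ± 0.21 in Kupffer-like cells (edgeR adjusted p = 0.000314), 0.97 ± 0.15 in hepatocyte-like cells (edgeR adjusted p = 0.00854) and 0.70 ± 0.17 in endothelial-like cells (edgeR adjusted p = 0.0241). Vtn was at 3114 CPM in hepatocyte-like and 1190 CPM in Kupffer-like cells. Named after their values were seen, the hepatocyte markers Ttr, Gc and Azgp1 were called higher in the same Kupffer-like fit, by 1.48, 1.02 and 0.79 (edgeR adjusted p = 0.0279, 0.0239 and 0.0418), and their part in the rise of Vtn was not tested. None of the 9 fell, and none was called in all cells. The median log2 change of the 9 in Kupffer-like cells was 0.04, beside -0.01 over all targets tested.

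Of 14 genes for receptors and bridging molecules of C1q and of the uptake of dying cells, 7 were targets, and none was called in any of the 4 fits. In Kupffer-like cells the receptor kinase gene Axl stood at 2575 CPM, Cd47, which restrains uptake by macrophages, at 2310, the inhibitory receptor gene Lair1 at 1242 and the receptor kinase gene Mertk at 1061. The lowest p among them was that of the scavenger receptor gene Cd36 in endothelial-like cells, with 0.54 ± 0.19 (edgeR adjusted p = 0.390). The median change in Kupffer-like cells was -0.04.

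Of 39 macrophage genes, 23 were targets, and in Kupffer-like cells 1 rose and 1 fell while the C1q genes were not called. Gpnmb, a gene of lipid-handling macrophages, rose by 2.11 ± 0.37 (edgeR adjusted p = 0.000537). It averaged 391 CPM in control, below the highest negative probe at 446 CPM, and 1704 CPM in HIRA KO. The size of its rise is thus limited by background. At the higher Leiden resolution tried, a cluster of 537 cells led by Gpnmb took no name. The part of such cells in the rise was not tested. Cd163, the haemoglobin scavenger receptor gene of resident macrophages, changed by -1.62 ± 0.20 (edgeR adjusted p = 1.51e-06). No gene of this list was called in the other fits. Cd5l, at 11393 CPM the highest of the list in Kupffer-like cells, averaged 12308 CPM in control and 10479 CPM in HIRA KO. The median change of the 23 was -0.05 in Kupffer-like cells.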

How the data were processed

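Transcripts of a mouse panel of 1000 gene targets were imaged by CosMx spatial molecular imaging in 50 fields of view of liver sections. The authors deposited raw counts per target and segmented cell, together with single transcripts, and per the file headers the mean intensity of antibody stains, CD45 among them, per cell; the platform decoded and segmented. Pixel size, the version of the software that decoded and segmented, and any background subtraction are not given in the sources used here. The count table and the transcript table were compared for the 3 genes and 0 of 52182 lines differed. Cell outlines and annotations of cell types were not used here.

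Cells with fewer than 20 gene counts, or an area above 5 times the geometric mean, were left out. Counts of the other targets were turned into Pearson residuals (theta 100, clip 10), reduced to 30 components and clustered with the Leiden algorithm (leidenalg 0.10.2, resolution 1.6, 20 nearest neighbours) with C1qa, C1qb and C1qc left out. A class name ends in "-like" and comes from marker lists without these genes. No doublet caller was run, since neighbouring cells of a section share transcripts. Groups come from the labels and areas from consecutive field numbers, checked against slide positions. Counts summed per area were tested with edgeR 4.0.16 (R 4.3.3; quasi-likelihood, TMM, Benjamini-Hochberg over all targets), and single values with exact permutation tests in Python 3.11.15. The edgeR step was tested on simulated data.

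Intervals of shares and levels cover counting error only; between areas, precision is limited by 3 areas per group. The named genes are the 3 members, the listed genes that were called, the 4 of each list with the lowest p and the 4 highest in Kupffer-like cells, and the 6 panel genes most like summed C1q; Cd5l, Marco and Apoa1 serve as comparison genes. Members and lists were chosen with earlier results of these data known. Alternatives covered scaling, DESeq2 1.42.0, filters, slide row, clustering, depth, distance and each area left out. The contrasts in endothelial-like and stellate-like cells, the membrane zone and the level without 1 field were added after seeing the data.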

Additional observations from a re-analysis of the deposited data

Results flagged for a closer look

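A search for 1 value far from the rest covered 42 groups of values, of which chance would flag about 1 in 20. Some groups were the fields of view of an area, by chain and for the sum. The others were the area values of results that do not compare genotypes. In control area 3 the summed C1q level of field 39 was 4942 CPM, while its other 7 fields lay between 6563 and 7968 CPM. In HIRA KO area 3 field 50 gave 14190 CPM of summed C1q, with the other fields between 6787 and 10270 CPM, and 5941 CPM of C1qa, with the others between 2437 and 3870 CPM. Field 50 also held the most Kupffer-like cells of its area, 118; their part in its level was not tested.

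In neither lymphocyte class did summed C1q differ between the groups beyond their spread. T/NK-like cells averaged 4714 CPM in control and 5441 CPM in HIRA KO, and B-lineage-like cells 5330 and 4643 CPM, each with overlap (exact permutation p = 0.5, n = 3 each). They came from a search of 10 named classes for pairs that went opposite ways in every slide row. With 3 rows some classes keep 1 sign by chance. Within slide rows the log2 ratio of HIRA KO over control averaged 0.23 in T/NK-like cells, above 0 in every row, and -0.18 in B-lineage-like cells, below 0 in every row, a difference of 0.41 that was not tested.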

How the results depend on the processing

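The 3 genes were refitted by genotype 132 times under other settings, and 0 of these fits passed an adjusted p of 0.05, while 18 turned the sign of a value. Areas could not be paired by animal or replicate number, because the field numbers of the groups are not shared and no label pairs them. A fit with the slide row, a position, as a block was run, and in it the all-cell log2 change of C1qa was 0.34 and that of hepatocyte-like cells 0.37, neither called by edgeR. Signs turned for C1qb in all cells with library size only (-0.0578), for C1qc in Kupffer-like cells at Leiden resolution 2.4 (0.0077) and with the 3 genes kept in the clustering (0.0764), for the C1qc share in transcripts outside cells (-0.97 percentage points) and for the share outside cells once that of all genes was taken off (-0.95 points). The causes were not tested. Resolution 0.8 and log-normalized counts gave no Kupffer-like class, so values that need it could not be had there.

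With each area left out in turn, the all-cell log2 changes ran from -0.031 to 0.62 for C1qa, -0.37 to 0.31 for C1qb and -0.0409 to 0.40 for C1qc. In Kupffer-like cells they ran from -0.0928 to 0.39, -0.57 to 0.0486 and -0.20 to 0.0398. In hepatocyte-like cells C1qa ran from 0.16 to 0.61 and C1qb from -0.26 to 0.17, and in endothelial-like cells C1qa from -0.10 to 0.26 and C1qb from -0.33 to 0.00061. The difference of the C1qc share ran from -0.79 to 1.67 points in all cells and -1.61 to 1.62 in Kupffer-like cells, and that of the share outside cells from -0.24 to 0.62. The differences of the C1qa share (3.16 to 5.24 points) and the C1qb share (-6.34 to -3.61) in all cells kept their sign. So did near over far (0.24 to 0.30), the facing cosine (0.148 to 0.175), the distance outside cells (-35.7 to -29.2 pixels), and the CD45 difference (2074 to 2311), where 5 areas allow no exact p below 0.0625.

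Between classes, the log2 ratio of monocyte/dendritic-like over hepatocyte-like cells, 2.15, was 1.03 with the 3 genes kept in the clustering, 1.84 at resolution 2.4, 2.54 at 0.8 and 2.39 with log-normalized counts. The log2 ratio of B-lineage-like over hepatocyte-like cells no longer passed the threshold with the 3 genes kept in the clustering (0.22), at resolution 2.4 (0.24) and with log-normalized counts (0.28). Thinning cells to 50 counts moved the excess in cells with a count over hepatocyte-like cells to 8.97 points in stellate-like, 5.66 in T/NK-like, 4.06 in B-lineage-like and 1.4 in endothelial-like cells, from 1.71, -3.58, 0.385 and -9.20. The CD45 difference at 20 or more counts was 2888 over 4 areas, 3 of which held only 1 such cell (exact permutation p = 0.125).

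Among all targets, edgeR called 2 higher and 0 lower in all cells, DESeq2 9 and 1, the row block 16 and 1, and library size only 1 higher. In hepatocyte-like cells the counts were 5 and 3, against 15 and 5 with DESeq2, 9 and 5 with the block, and 5 lower with library size only. In Kupffer-like cells 5 were higher, and 3 with DESeq2, resolution 2.4 or the 3 genes kept. In endothelial-like cells 2 were higher, 7 with the block and 4 with library size only. Background limits C1qc in some classes. Its level was 650 CPM in hepatocyte-like and 608 CPM in myofibroblast-like cells, beside 476 and 478 CPM for a mean negative probe. The distance was larger in other classes, such as stellate-like cells, at 1188 beside 370 CPM.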
